A study of Rattus norvegicus with 12 samples.

Results

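The 10 genes described here are the repressor and output genes of the circadian clock: Per1, Per2, Per3, Cry1, Cry2, Ciart, Nr1d1, Nr1d2, Dbp and Tef. They were taken by symbol from the 31177 rows of the count table, and each symbol matched 1 row. All 10 passed the filter on low counts that left 18850 genes to be tested. Brain RNA was sequenced in 12 libraries, 4 in each of 3 groups: AD-HFD (a model of Alzheimer's disease given a high-fat diet), AD (an Alzheimer's disease model with no diet named in its label) and Sham (the controls). Titles and protocols call the animals mice, whereas the stated organism is rat and the identifiers are rat Ensembl genes, so rat gene names are used. All groups were kept in 12 h of light and 12 h of dark with free access to food and water. The labels give no clock time of tissue collection, no brain region, no strain, genotype, age or sex, and not how the model was made. Phase of the clock and amount of a transcript can therefore not be told apart. Nothing in the labels ties a library to its own animal, and p-values therefore measure only the spread among these libraries, which may be technical. In bulk tissue, fewer cells of a type and less RNA per cell cannot be told apart.

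The mammalian clock is a feedback loop of transcription. The activators Arntl (BMAL1) and CLOCK, or its relative NPAS2 in forebrain, bind E-box sequences and switch on the Per, Cry, Ciart, Nr1d, Dbp and Tef genes. The PER, CRY and CIART proteins then inhibit the activators. REV-ERB alpha and beta, the products of Nr1d1 and Nr1d2, repress Arntl, and the transcription factors DBP, TEF and HLF carry the rhythm to other genes through D-box sequences, where NFIL3 opposes them. Most brain cells hold this loop, and the suprachiasmatic nucleus of the hypothalamus sets its time.

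The promoters of 5 of the members called in a comparison are shown because the loop is known to act through elements in promoters. Nr1d2, also called, is not shown because its window held none of the motifs searched, and Dbp is shown as an example of such a window. RefSeq sequences of the rat build GRCr8, from 250 bases before to 50 bases after a start site, were matched for 9 of the 10 genes (all but Cry1), with 2 start sites for Nr1d1. Both strands were searched for the E-box CACGTG, the related E′-box CACGTT, the D-box TTATGTAA or TTACGTAA, the ROR element TAGGTCA and the cyclic AMP element TGACGTCA. Capitals mark the matches, and an E′-box on the other strand reads AACGTG. No match overlapped another.
Ciart, chr2:186112197-186112496, minus strand: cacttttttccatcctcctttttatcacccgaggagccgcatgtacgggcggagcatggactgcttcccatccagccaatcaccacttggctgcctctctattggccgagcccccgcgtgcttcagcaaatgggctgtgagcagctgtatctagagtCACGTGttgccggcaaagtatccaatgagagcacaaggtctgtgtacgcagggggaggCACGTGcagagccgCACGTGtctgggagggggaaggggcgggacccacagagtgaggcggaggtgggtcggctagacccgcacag
Per2, chr9:99496944-99497243, minus strand: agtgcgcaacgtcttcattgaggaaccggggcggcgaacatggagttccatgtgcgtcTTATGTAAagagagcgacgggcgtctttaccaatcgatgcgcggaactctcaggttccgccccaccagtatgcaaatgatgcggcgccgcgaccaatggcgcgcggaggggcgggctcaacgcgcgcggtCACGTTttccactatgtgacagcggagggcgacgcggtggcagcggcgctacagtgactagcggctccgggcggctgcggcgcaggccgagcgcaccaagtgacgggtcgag
Nr1d1 upstream start, chr10:84231763-84232062, minus strand: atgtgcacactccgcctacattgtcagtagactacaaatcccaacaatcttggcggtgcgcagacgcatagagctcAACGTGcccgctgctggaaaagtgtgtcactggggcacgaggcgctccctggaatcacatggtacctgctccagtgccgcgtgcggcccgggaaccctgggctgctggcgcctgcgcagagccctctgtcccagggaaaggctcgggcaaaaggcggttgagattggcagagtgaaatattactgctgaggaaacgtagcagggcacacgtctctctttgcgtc
Nr1d1 downstream start, chr10:84229405-84229704, minus strand: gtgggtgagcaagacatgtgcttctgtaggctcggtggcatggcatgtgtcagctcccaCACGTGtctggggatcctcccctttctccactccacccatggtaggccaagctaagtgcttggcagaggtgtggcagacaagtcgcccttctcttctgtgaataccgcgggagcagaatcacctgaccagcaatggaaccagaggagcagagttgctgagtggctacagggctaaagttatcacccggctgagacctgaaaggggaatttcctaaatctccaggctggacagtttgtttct
Dbp, chr1:105312006-105312305, plus strand: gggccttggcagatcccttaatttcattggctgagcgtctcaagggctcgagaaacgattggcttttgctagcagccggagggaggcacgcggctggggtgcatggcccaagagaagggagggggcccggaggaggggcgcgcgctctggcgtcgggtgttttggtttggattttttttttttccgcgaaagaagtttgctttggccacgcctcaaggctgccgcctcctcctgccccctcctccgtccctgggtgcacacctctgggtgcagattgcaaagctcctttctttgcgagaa
Tef, chr7:115206577-115206876, plus strand: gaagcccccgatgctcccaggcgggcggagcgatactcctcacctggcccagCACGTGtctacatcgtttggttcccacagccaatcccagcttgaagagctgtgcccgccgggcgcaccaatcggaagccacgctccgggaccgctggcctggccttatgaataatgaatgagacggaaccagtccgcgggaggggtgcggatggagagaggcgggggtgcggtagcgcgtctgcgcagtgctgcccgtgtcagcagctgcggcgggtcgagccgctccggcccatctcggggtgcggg
Ciart held 3 E-boxes, beginning 93, 35 and 21 bases before the start. Tef held 1 E-box at 198 bases before its start, and the downstream Nr1d1 window held 1 at 191 bases before the start. Per2 held an E′-box at 62 bases and a D-box at 192 bases before the start. The upstream Nr1d1 window and Cry2 each held 1 E′-box, at 174 and 212 bases before the start. None of these letters was found in the windows of Dbp, Per1, Per3 or Nr1d2. Of the 33469 promoter windows of the table, 6.42% held the E-box, 4.83% the E′-box, 1.01% the D-box, 2.63% the ROR element and 1.83% the cyclic AMP element. No window of the 10 genes held either of the last elements, and that of Bmal1, the current symbol of Arntl, held a ROR element at 16 bases before the start. A match is a description of the sequence and not a bound site.

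Total counts per library ran from 26668974 to 35351792. The 10 genes had between 222 counts (Ciart in AD-HFD-3) and 9685 counts (Tef in Sham-4) in a library. Levels are in CPM, which are counts scaled to a common library size, and each difference is given as a log2 fold change with its SE. Genes were called by edgeR's quasi-likelihood test at a Benjamini-Hochberg adjusted p under 0.05 over all genes tested. Libraries differed in markers of cell types and regions. The summed CPM of 7 cortical excitatory neuron markers (Slc17a7 among them) was 418 to 1839 in AD-HFD, 73.0 to 1538 in AD and 1686 to 2308 in Sham. Of these, Nrn1 averaged higher in AD-HFD (138 CPM) and AD (217 CPM) than in Sham (131 CPM), and the others averaged lower. The sum over 8 thalamus markers was 83.7 to 112 in AD-HFD, 129 to 1900 in AD and 60.3 to 137 in Sham. General neuron markers, 6 genes, summed to 1299 to 5362 in AD-HFD, 4289 to 5142 in AD and 6450 to 8373 in Sham. In AD, Rbfox3, Snap25 and Syt1 lay below Sham without overlap, while Eno2, Stmn2 and Tubb3 overlapped Sham. None of the 6 was called in AD against Sham. In AD-HFD against Sham Rbfox3, Snap25, Syt1 and Tubb3 were called lower (adjusted p 0.00819 to 0.0265), where 12.9% of all genes tested were. Eno2 and Stmn2 were not called there (adjusted p 0.0598 and 0.0594). The 7 suprachiasmatic nucleus markers summed to 84.7 to 170 CPM in AD-HFD, 23.3 to 492 CPM in AD and 52.1 to 84.0 CPM in Sham. Members of this list went different ways: Rgs16 averaged 89.4 CPM in AD-HFD, 126 CPM in AD and 12.4 CPM in Sham and was called higher in both model groups, while Grp averaged 2.33 CPM in AD-HFD, 2.87 CPM in AD and 15.8 CPM in Sham and was called lower in both. Vip averaged 20.9 CPM in AD-HFD, 17.3 CPM in AD and 42.3 CPM in Sham and was not called. Six6 was at 0 outside AD-4 and Sham-2, and Lhx1 was at 0 in AD-HFD, AD-3 and every Sham library but Sham-2. Endothelial markers, 4 genes found, summed to 157 to 1156 CPM in AD-HFD, 108 to 209 CPM in AD and 67.6 to 88.9 CPM in Sham, and Cldn5 was at 0 in every library but AD-HFD-1 and AD-2. Red blood cell genes, 4 in all, summed to 253 to 4204 CPM in AD-HFD, 271 to 611 CPM in AD and 159 to 361 CPM in Sham. Thalamus markers were high in AD-1, AD-4 and AD-2 but not in AD-3. The part of these marker differences in the results below was not tested.

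**Figure D1:**
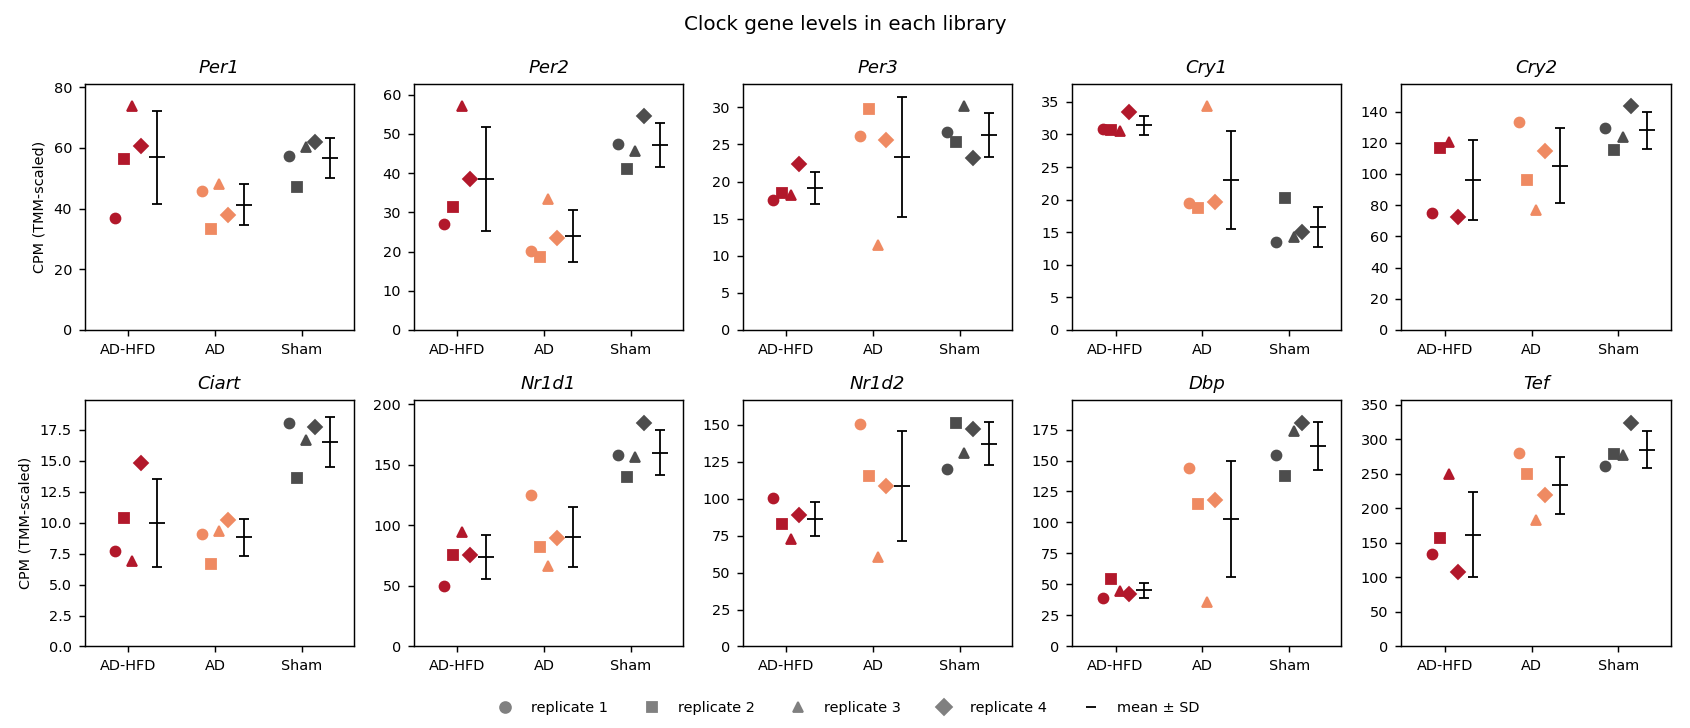
Level of each clock gene in every library, in CPM from 0, with AD-HFD, AD and Sham from left to right. Marker shape gives the replicate number and bars the mean ± SD of 4 libraries. Dbp lay between 39.4 and 54.1 CPM in AD-HFD, at 35.6 CPM in AD-3, and between 138 and 181 CPM in Sham.

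Dbp had the widest difference of the 10 genes in AD-HFD against Sham. This PAR bZIP output factor, which activates D-box genes, was at 39.4, 54.1, 44.9 and 42.6 CPM in AD-HFD-1 to AD-HFD-4. It was at 144, 115, 35.6 and 118 CPM in AD-1 to AD-4, and at 155, 138, 174 and 181 CPM in Sham-1 to Sham-4. All 4 AD-HFD libraries lay below all Sham libraries, and AD-3 lay below every AD-HFD library while the other 3 AD libraries lay above them. Dbp fell by 1.84 ± 0.326 in AD-HFD against Sham (adjusted p = 0.00365). It stood at -1.19 ± 0.320 between AD-HFD and AD (adjusted p = 0.0618) and at -0.65 ± 0.316 between AD and Sham (adjusted p = 0.233), and passed in neither. Without AD-3 the fall in AD-HFD against AD was 1.47 ± 0.151 and passed (adjusted p = 0.000378). It also passed without AD-HFD-3 (adjusted p = 0.0334) and by DESeq2 (adjusted p = 0.00846). Over all genes, leaving out AD-3 gave 3470 higher and 2371 lower calls in AD-HFD against AD, where all libraries gave 2.

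Tef, the second D-box activator among the members, averaged 162 ± 61.5 CPM in AD-HFD, 233 ± 41.6 CPM in AD and 285 ± 27.2 CPM in Sham (SD, n = 4 each). The single AD-HFD libraries were at 134, 157, 249 and 108 CPM, with AD-HFD-3 close to the Sham minimum of 261 CPM. Tef fell by 0.81 ± 0.233 in AD-HFD against Sham (adjusted p = 0.0214), and this call was lost without AD-HFD-1, AD-HFD-4 or Sham-4 (adjusted p 0.0541 to 0.0606). Between AD-HFD and AD it stood at -0.52 ± 0.232 (adjusted p = 0.151) and passed without AD-HFD-3 (-0.81 ± 0.177, adjusted p = 0.00984). Between AD and Sham it stood at -0.29 ± 0.231 (adjusted p = 0.477).

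Among the nuclear receptors, Nr1d1 was lower in both model groups. Nr1d1 was at 50.1, 75.8, 94.2 and 75.3 CPM in the AD-HFD libraries, at 125, 81.8, 66.1 and 89.2 CPM in the AD libraries, and at 158, 140, 157 and 185 CPM in the Sham libraries. No library of either model group reached the lowest Sham library. Nr1d1 fell by 1.11 ± 0.220 in AD-HFD against Sham (adjusted p = 0.00497) and by 0.82 ± 0.219 in AD against Sham (adjusted p = 0.0472). AD-HFD and AD differed by -0.29 ± 0.218, which did not pass (adjusted p = 0.375). The call in AD against Sham lay at the threshold. It was lost without AD-2, AD-3, AD-4, AD-HFD-2 or any 1 Sham library (adjusted p 0.0606 to 0.134). In the reference annotation Nr1d1 shares 1061 bases with Thra, a thyroid hormone receptor gene, and the strand setting of the counting is not given, so reads there cannot be told apart. Thra averaged 271 ± 124 CPM in AD-HFD and 455 ± 77.8 CPM in Sham (SD, n = 4 each) and fell by 0.75 ± 0.263 (adjusted p = 0.0462), a call lost when any 1 library other than AD-3, AD-HFD-3 or Sham-2 was left out (adjusted p 0.0603 to 0.12).

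Nr1d2, which encodes the second REV-ERB repressor, was at 100, 83.1, 72.4 and 88.6 CPM in the AD-HFD libraries, at 150, 115, 60.2 and 108 CPM in the AD libraries, and at 120, 151, 131 and 147 CPM in the Sham libraries. The AD-HFD libraries did not overlap Sham, while AD-1 lay inside the Sham range and AD-3 below every AD-HFD library. Nr1d2 fell by 0.67 ± 0.227 in AD-HFD against Sham (adjusted p = 0.0404). This call was lost without AD-2, AD-4, or any 1 AD-HFD or Sham library (adjusted p 0.0511 to 0.091), and with total counts as the scaling (adjusted p = 0.0679). The difference was -0.33 ± 0.226 between AD-HFD and AD (adjusted p = 0.335). Between AD and Sham it was -0.34 ± 0.226 (adjusted p = 0.393).

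Cry1 was the 1 member that rose. This cryptochrome, a strong repressor of the activator pair and in mouse tissues a gene that peaks later than the other E-box targets, was at 30.8, 30.8, 30.5 and 33.5 CPM in the AD-HFD libraries. It was at 19.4, 18.7, 34.4 and 19.6 CPM in the AD libraries and at 13.5, 20.2, 14.3 and 15.0 CPM in the Sham libraries. The AD-HFD libraries lay within a narrow band above all Sham libraries, AD-3 lay above them, and the other 3 AD libraries lay near the highest Sham library. Cry1 rose by 0.99 ± 0.213 in AD-HFD against Sham (adjusted p = 0.00677). It stood at 0.45 ± 0.210 between AD-HFD and AD (adjusted p = 0.173) and at 0.55 ± 0.212 between AD and Sham (adjusted p = 0.141). Without AD-3 the difference between AD-HFD and AD was 0.71 ± 0.154 and passed (adjusted p = 0.00832). In the reference annotation the span of Cry1, introns included, shares 19662 bases with that of an uncharacterised protein-coding locus. Whether exons overlap was not examined, so how far its reads are uncertain is not known.

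Cry2, the second cryptochrome, averaged 96.1 ± 25.8 CPM in AD-HFD, 105 ± 24.2 CPM in AD and 128 ± 11.8 CPM in Sham (SD, n = 4 each). It passed the test in none of the 3 comparisons by edgeR's quasi-likelihood method (adjusted p 0.143 to 0.691), with the widest difference, -0.41 ± 0.209, in AD-HFD against Sham. Its libraries overlapped between all groups. In the reference annotation the span of Cry2, introns included, shares 8792 bases with that of a long non-coding RNA locus. Whether exons overlap was not examined, and reads of any shared exon cannot be told apart without a stated strand setting.

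The Period genes did not move as 1 group. Per2, a repressor that also responds to light and to neuronal activity, was at 27.1, 31.5, 57.1 and 38.4 CPM in the AD-HFD libraries. It was at 20.2, 18.7, 33.5 and 23.4 CPM in the AD libraries and at 47.5, 41.0, 45.8 and 54.5 CPM in the Sham libraries. All AD libraries lay below all Sham libraries, and the AD-HFD libraries spread from the AD range to above the highest Sham library. Per2 fell by 0.98 ± 0.246 in AD against Sham (adjusted p = 0.0389), a call lost without any 1 Sham library or any 1 AD library other than AD-3 (adjusted p 0.0607 to 0.114). Between AD-HFD and AD it stood at 0.69 ± 0.245 (adjusted p = 0.0955) and passed without AD-3 (0.89 ± 0.236, adjusted p = 0.0179). Between AD-HFD and Sham it stood at -0.29 ± 0.243 (adjusted p = 0.368). The span of Per2, introns included, shares 17565 bases with that of a long non-coding RNA locus in the reference annotation. Whether exons overlap was not examined here either, so how far its reads are uncertain is not known.

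Per1, the Period gene with the fastest response to light and glucocorticoids, averaged 56.9 ± 15.4 CPM in AD-HFD, 41.3 ± 6.83 CPM in AD and 56.7 ± 6.66 CPM in Sham (SD, n = 4 each). It stood at 0.46 ± 0.203 between AD-HFD and AD (adjusted p = 0.148) and at -0.46 ± 0.203 between AD and Sham (adjusted p = 0.193). In AD-HFD against Sham the difference was 0.01 ± 0.202 (adjusted p = 0.985), and its sign changed with the scaling. Beside these genes, the summed CPM of 9 immediate early genes was 1035 to 2086 in AD-HFD, 77.3 to 706 in AD and 381 to 612 in Sham. Members of this list differed. Nr4a1 averaged lower in AD-HFD than in Sham (45.3 against 67.8 CPM) and Arc lay near its Sham mean (84.8 against 78.9 CPM). The others averaged higher in AD-HFD, among them Fos (231 against 11.7 CPM). Beside AD, every member found averaged higher in AD-HFD. Nr4a1 alone of the list was called there (2.11 ± 0.249, adjusted p = 0.0198), where 2 of all genes tested were called. Glucocorticoid response genes, 8 in all, summed to 535 to 1288 in AD-HFD, 429 to 622 in AD and 289 to 360 in Sham. Within this list Zbtb16 (8.80 against 16.2 CPM) and Tsc22d3 (61.4 against 75.8 CPM) averaged lower in AD-HFD than in Sham. The other members averaged higher, among them Fkbp5 (53.3 against 44.1 CPM) and Nfkbia (120 against 14.8 CPM). The part of these lists in the Period gene levels was not tested.

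Per3, a Period gene with a weaker role in the loop, was at 17.6, 18.4, 18.1 and 22.3 CPM in the AD-HFD libraries, at 26.2, 29.8, 11.5 and 25.6 CPM in the AD libraries, and at 26.6, 25.3, 30.2 and 23.1 CPM in the Sham libraries. The AD-HFD libraries all lay below Sham, but the difference of -0.46 ± 0.244 did not pass (adjusted p = 0.16). It passed in a fit on these 2 groups alone (adjusted p = 0.039) and without AD-3 (-0.46 ± 0.133, adjusted p = 0.0193), and without AD-3 Per3 also fell in AD-HFD against AD (-0.51 ± 0.143, adjusted p = 0.0218). In AD against Sham the difference was -0.18 ± 0.243 (adjusted p = 0.697), and without AD-3 it was 0.05.

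Ciart, a further repressor of the activator pair, was at 7.69, 10.4, 6.94 and 14.8 CPM in the AD-HFD libraries, at 9.08, 6.62, 9.32 and 10.2 CPM in the AD libraries, and at 18.1, 13.6, 16.6 and 17.7 CPM in the Sham libraries. The AD libraries did not overlap Sham, and AD-HFD-4 lay above the lowest Sham library. Ciart fell by 0.91 ± 0.245 in AD against Sham (adjusted p = 0.049), and by 0.73 ± 0.244 in AD-HFD against Sham (adjusted p = 0.039). The first call was lost when any 1 library other than AD-3, AD-HFD-3 or AD-HFD-4 was left out (adjusted p 0.0514 to 0.138). The second was lost without AD-HFD-1, AD-HFD-2, AD-HFD-3, Sham-1, Sham-3 or Sham-4 (adjusted p 0.0538 to 0.1). Between AD-HFD and AD it stood at 0.18 ± 0.246 (adjusted p = 0.641).

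**Figure D2:**
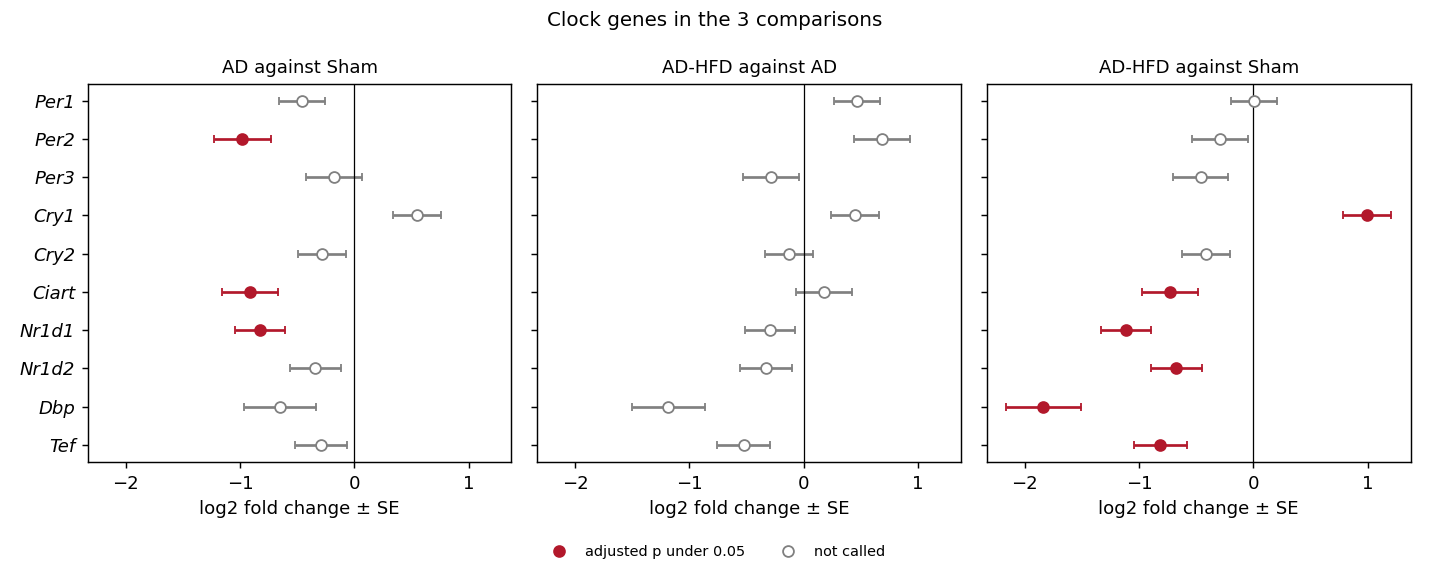
Log2 fold change ± SE of each clock gene in the 3 comparisons, with filled points for an adjusted p under 0.05. The filled points are Per2, Ciart and Nr1d1 for AD against Sham, none for AD-HFD against AD, and Cry1, Ciart, Nr1d1, Nr1d2, Dbp and Tef for AD-HFD against Sham.

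Set side by side, 3 of the 10 genes fell and none rose in AD against Sham, where 6.23% of all genes tested were called, 3.16% lower and 3.07% higher. The median log2 fold change was -0.40 over the 10 genes and 0.06 over all genes tested. In AD-HFD against Sham 5 fell and 1 rose, where 32.7% of all genes were called, 12.9% lower and 19.7% higher. The median was -0.57 over the 10 genes and 0.03 over all genes. Groups did not overlap for 3 lower and no higher members in AD against Sham, against 11.3% and 10.3% of all genes. In AD-HFD against Sham they did not overlap for 5 lower and 1 higher members, against 16.2% and 18.9% of all genes. The comparisons share their Sham libraries, so the calls of Nr1d1 and Ciart in both are not independent of each other.

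In AD-HFD against AD, the comparison that holds the diet, edgeR called none of the 10 genes, where 0.0106% of all genes were called. At an unadjusted p under 0.05 there were 4, of which Per1 and Per2 were higher and Dbp and Tef lower. Of all genes 30.5% passed that limit, 17.1% higher and 13.4% lower. Groups overlapped for all 10 members, while 5.46% of all genes did not overlap. DESeq2 called 1, Dbp, and limma voom none. Over all genes DESeq2 called 1762 higher and 1549 lower, and limma voom 2 higher. The median was -0.21 over the 10 genes and 0.04 over all genes.

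The counts of calls rested on single libraries. In AD against Sham no member was called without AD-2, AD-4 or any 1 Sham library, and 1 was called without AD-1 (Nr1d1) or AD-HFD-2 (Per2). In AD-HFD against Sham 3 were called without AD-HFD-1 or Sham-4, and 4 without AD-HFD-2, AD-HFD-3, AD-HFD-4, Sham-1 or Sham-3. Cry1, Dbp and Nr1d1 were called in that comparison under every alternative run. In AD-HFD against AD 5 were called without AD-3 (Per2 and Cry1 higher, Per3, Nr1d2 and Dbp lower) and 2 without AD-HFD-3 (Dbp and Tef lower). The calls over all genes moved as well. Without AD-3, 3470 of 19278 genes were called higher and 2371 lower in that comparison. Without AD-HFD-3 these were 2849 and 2472 of 19305 genes. With 1 library left out, 302 to 2329 genes were called in AD against Sham and 3514 to 8615 in AD-HFD against Sham.

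AD-3 stood apart from the other AD libraries in most of the clock genes, though not in Ciart (9.32 CPM, in an AD range of 6.62 to 10.2 CPM). For 10 of 10 genes its level on the log2 scale was closer to the AD-HFD mean than to the Sham mean. The same held for 3 genes in AD-1, 5 in AD-2 and 4 in AD-4. Per1, Per2 and Ciart were among them in each of these libraries, so they do not set AD-3 apart. AD-1 had 6 of the 10 genes inside the Sham range (Per3, Cry1, Cry2, Nr1d2, Dbp and Tef), and AD-3 had 1, Per1. AD-3 also differed from its group in marker levels, with a cortical marker sum of 1538 CPM against 73.0 to 238 CPM in the other AD libraries. Within that sum AD-3 held 828 CPM of Slc17a7 and 593 CPM of Nrn1. Its Nrn1 lay above the highest Sham library (174 CPM), while the other markers found, Slc17a7 included, lay below every Sham library. AD-HFD-3, at 1839 CPM of cortical markers, lay inside the Sham range of that sum. Its Nrn1 (309 CPM) lay above every Sham library, its Slc17a7 (1257 CPM) inside the Sham range and the other markers found below it. In this library Dbp (44.9 CPM), Nr1d1 (94.2 CPM), Nr1d2 (72.4 CPM), Per3 (18.1 CPM), Ciart (6.94 CPM) and Tef (249 CPM) lay below every Sham library. Cry1 (30.5 CPM), Per1 (73.8 CPM) and Per2 (57.1 CPM) lay above every Sham library, and Cry2 (120 CPM) lay inside the Sham range.

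**Figure D3:**
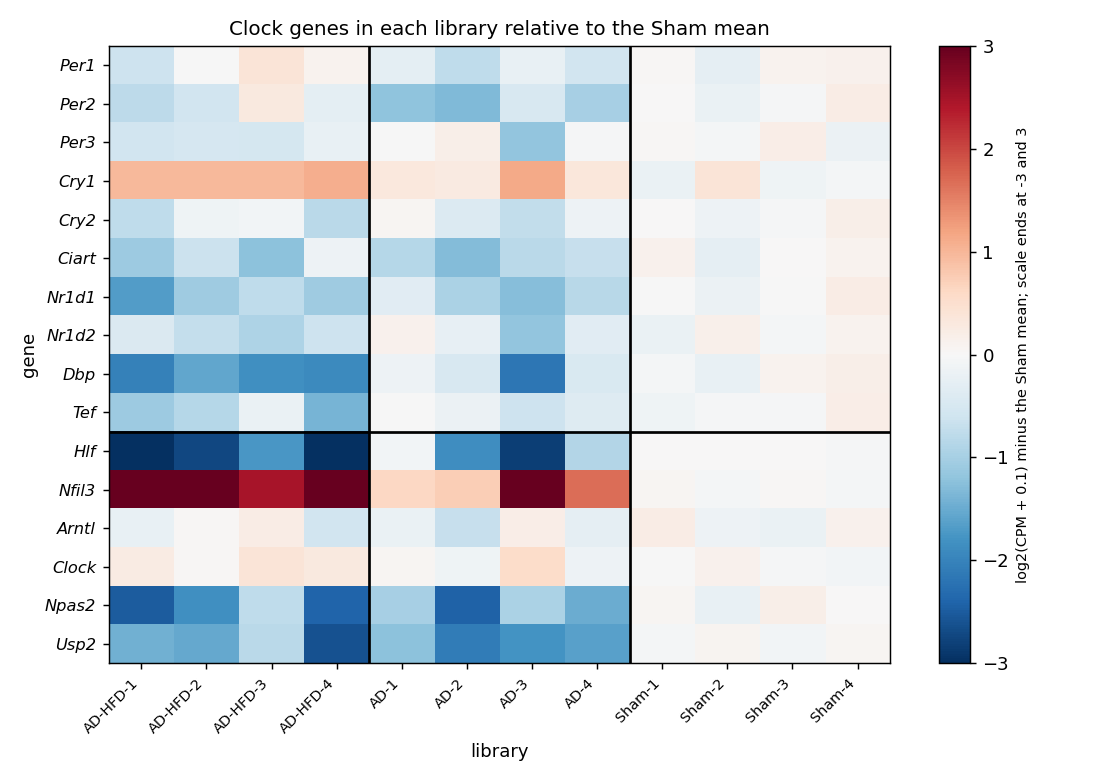
Difference of each library from the Sham mean on the log2(CPM + 0.1) scale, for the 10 clock genes (upper block) and 6 other genes of the loop (lower block), with AD-HFD, AD and Sham libraries from left to right. AD-3 shares the low Dbp and Hlf and the high Cry1 and Nfil3 of the AD-HFD libraries; colours end at -3 and 3.

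Of a list of 37 other clock genes, 36 were found and 35 tested. Between AD-HFD and Sham 3 rose and 4 fell, a smaller share than the 32.7% called among all genes tested, with a median of 0.07 beside 0.03 over all genes. Between AD-HFD and AD edgeR called none, with 8 at an unadjusted p under 0.05 beside 30.5% of all genes, while DESeq2 called 4 (Bmp6, Btrc, Fbxl21 and Hlf), and the median was 0.05 beside 0.04. Between AD and Sham 2 rose and 1 fell, beside 6.23% of all genes called, with a median of 0.01 beside 0.06. The last count was 7 without AD-3, 6 without AD-HFD-3, 5 without AD-HFD-4 and 1 without any 1 Sham library. Over all genes, 1102 were called higher and 1227 lower without AD-3, and 1110 and 1160 without AD-HFD-3.

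The third PAR bZIP factor and the opponent of this family moved in opposite directions. Hlf, the relative of Dbp and Tef, was at 2.79, 4.33, 8.69 and 2.66 CPM in the AD-HFD libraries, at 27.4, 7.91, 4.03 and 15.8 CPM in the AD libraries, and at 29.4, 29.6, 29.4 and 28.3 CPM in the Sham libraries. It fell by 2.65 ± 0.533 in AD-HFD against Sham (adjusted p = 0.00526) and did not pass in AD-HFD against AD (-1.57 ± 0.521, adjusted p = 0.0831). Without AD-3 it fell there too (-1.88 ± 0.442, adjusted p = 0.0113), as it did without AD-HFD-3 (adjusted p = 0.018).

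Nfil3, the D-box repressor, was at 59.1, 65.0, 41.1 and 80.4 CPM in the AD-HFD libraries, at 11.3, 12.3, 70.0 and 23.4 CPM in the AD libraries, and at 7.63, 7.06, 7.52 and 7.06 CPM in the Sham libraries. Every library of both model groups lay above every Sham library. Nfil3 rose by 3.07 ± 0.521 in AD-HFD against Sham (adjusted p = 0.00322) and by 1.998 ± 0.503 in AD against Sham (adjusted p = 0.0391). The second call was lost by voom (adjusted p = 0.131) and without AD-4, AD-HFD-1, AD-HFD-2 or any 1 Sham library (adjusted p 0.0518 to 0.108). Between AD-HFD and AD it stood at 1.07 ± 0.481 (adjusted p = 0.157), and without AD-3 it rose by 1.97 ± 0.284 (adjusted p = 0.00149).

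**Figure D4:**
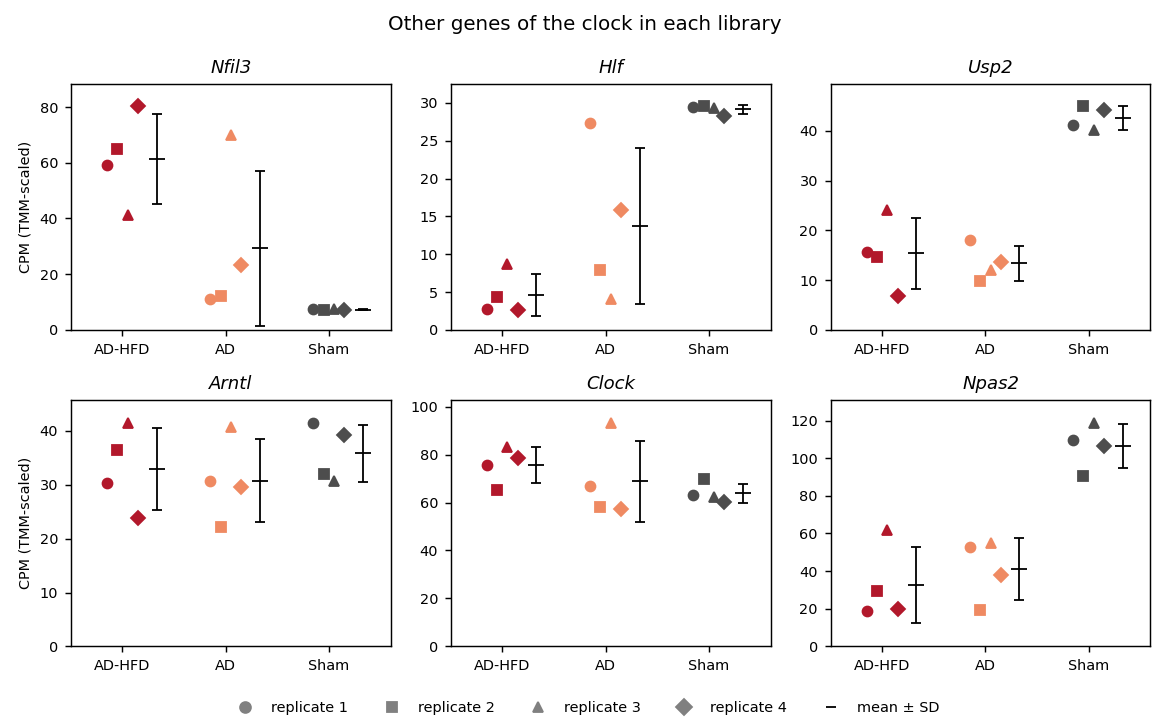
Level of 6 other genes of the loop in every library, in CPM from 0, with AD-HFD, AD and Sham from left to right; marker shape gives the replicate number and bars the mean ± SD of 4 libraries. Nfil3, Hlf, Usp2 and Npas2 do not overlap between either model group and Sham, while Arntl and Clock overlap in all comparisons.

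The activators differed among themselves. Arntl was at 30.3, 36.4, 41.4 and 23.8 CPM in the AD-HFD libraries, at 30.8, 22.1, 40.6 and 29.6 CPM in the AD libraries, and at 41.5, 32.0, 30.8 and 39.2 CPM in the Sham libraries, so all groups overlapped. Clock averaged 75.6 ± 7.63 CPM in AD-HFD, 68.8 ± 16.9 CPM in AD and 63.8 ± 4.08 CPM in Sham (SD, n = 4 each). Arntl differed by -0.12 ± 0.214 and Clock by 0.24 ± 0.163 in AD-HFD against Sham, and neither passed in any comparison by edgeR (adjusted p 0.26 to 0.776). The sign of Arntl in that comparison turned without AD-HFD-4 (0.0088). Npas2 averaged 32.5 ± 20.3 CPM in AD-HFD, 41.3 ± 16.5 CPM in AD and 106 ± 11.7 CPM in Sham (SD, n = 4 each). It fell by 1.71 ± 0.395 in AD-HFD against Sham (adjusted p = 0.00913) and stood at -1.36 ± 0.391 in AD against Sham (adjusted p = 0.0594), where it passed without AD-3 (adjusted p = 0.0416), without AD-HFD-3 (adjusted p = 0.014) or AD-HFD-4 (adjusted p = 0.0444), and by DESeq2 (adjusted p = 0.0109).

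Usp2, a rhythmic ubiquitin protease, averaged 15.4 ± 7.08 CPM in AD-HFD, 13.4 ± 3.51 CPM in AD and 42.6 ± 2.35 CPM in Sham (SD, n = 4 each). It fell by 1.47 ± 0.307 in AD-HFD against Sham (adjusted p = 0.00611) and by 1.67 ± 0.309 in AD against Sham (adjusted p = 0.012). Pdk4, a kinase that limits glucose oxidation, rose by 2.76 ± 0.543 in AD-HFD against Sham (adjusted p = 0.00496). Nampt, an enzyme of NAD synthesis, rose by 1.21 ± 0.312 in that comparison (adjusted p = 0.0142). Btrc, a ubiquitin ligase subunit that targets PER proteins, fell by 0.74 ± 0.230 (adjusted p = 0.0286), a call lost without any 1 AD-HFD library other than AD-HFD-3, or any 1 Sham library other than Sham-2 (adjusted p 0.0534 to 0.0823). Avp, a neuropeptide of the hypothalamus, had 0.83, 0.82, 3.97 and 261 CPM in the AD libraries and 0.10 to 0.35 CPM in the Sham libraries. It rose by 8.40 ± 1.96 in AD against Sham (adjusted p = 0.0277) and by 3.26 ± 0.718 without AD-4 (adjusted p = 0.0387), and the call was lost by voom and without any 1 Sham library (adjusted p 0.0656 to 0.395). Summed hypothalamus markers, 8 genes, were 1622 CPM in AD-4 and 16.1 to 113 CPM in the other AD libraries, and their part in this was not tested. The 4 smallest p between AD and Sham also took in Rora, a ROR receptor and thalamus marker (1.87 ± 0.532, adjusted p = 0.0588), and those between AD-HFD and AD took in Bmp6, a growth factor (2.19 ± 0.457, adjusted p = 0.0605).

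Covariation within groups was tested last. Of 55 pairs among the 10 genes and Arntl, none passed on log2 CPM centred on the group means over 12 libraries (100000 permutations, two-sided, adjusted over the 55 pairs). For Pearson's r the smallest adjusted permutation p was 0.0973, for Cry2 with Nr1d1 (Pearson r = 0.818, permutation p = 0.00354; Spearman rho = 0.832, permutation p = 0.0017) and for Cry2 with Dbp (r = 0.694, permutation p = 0.00201; rho = 0.741, permutation p = 0.00392). Without the 2 libraries farthest from the median of Cry2, r was 0.717 and 0.682 for these pairs. Cry1 and Dbp had r = -0.869 (permutation p = 0.0431, adjusted 0.297; rho = -0.762, permutation p = 0.0424), and r was 0.181 without the 2 libraries farthest from the median of Cry1, so that relation rested on those libraries.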

How the data were processed

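For 12 brain libraries, 4 per group, raw counts were deposited by the authors in 1 table of 31177 rows (22050 named Ensembl genes and 9127 unnamed loci, which stayed in the library sizes). Per the labels' protocols, TRIzol RNA (1 μg per sample) went into a Yeasen dual-mode mRNA kit. FastQC and Trimmomatic are named in the submitters' processing notes. The aligner, counting program, strand setting, build and annotation are not given in the sources used here. The 10 genes, the lists and the tests were chosen with earlier results of these data known.

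The analysis used edgeR 4.0.16 in R 4.3.3: filterByExpr, TMM scaling, non-legacy quasi-likelihood with 1 mean per group over all 12 libraries, and Benjamini-Hochberg adjustment over 18850 genes. The SE is the log2 fold change divided by the square root of F. Total counts of 26668974 to 35351792 per library set the precision, and spread between libraries exceeded counting error (no pair of libraries agreed within sampling noise). Alternatives were DESeq2 1.42.0, limma 3.58.1 voom, other scalings, filters and sample sets, and a replicate block. Named genes were the 10 members, Arntl, Clock, Npas2 and the 4 other clock genes with the smallest p in each comparison. Nampt, Fbxl21 and Thra were chosen after their values were seen. The test was checked on simulated counts, with the comparisons in the order AD against Sham, AD-HFD against AD and AD-HFD against Sham. Of 100 simulated 2-fold changes each it recovered 13, 18 and 13, and of 100 4-fold changes 60, 66 and 59. False calls were 7 of 80, 8 of 92 and 3 of 75. Only the 2-fold and 4-fold genes were changed in each simulation, among 18494 to 18506 genes tested. In the data 32.7% of all genes were called in AD-HFD against Sham, so the recoveries do not give the sensitivity of the real tests. Correlations used log2 CPM with a prior count of 2. Promoter sequences are from RefSeq (GRCr8). Sirt1 of the list was not analysed here, and some items are not reported here.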

Additional observations from a re-analysis of the deposited data

Results flagged for a closer look

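In the group-wise check for a single library far from the other 3 of its group, run on 63 sets of 4 values, 3 values stood out, and chance alone flags about 1 in 20 sets. Cry1 was at 34.4 CPM in AD-3, against 18.7 to 19.6 CPM in the other AD libraries. In AD-HFD-4 the level of Cry1 was 33.5 CPM, while the other AD-HFD libraries held 30.5 to 30.8 CPM. Avp was at 261 CPM in AD-4, against 0.82 to 3.97 CPM in the other AD libraries.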

How the results depend on the processing

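Of the 10 clock genes, 3 were called in AD against Sham, 0 between AD-HFD and AD and 6 in AD-HFD against Sham. Leaving out 1 library gave 0 to 3, 0 to 5 and 3 to 7. In AD against Sham the count was 1 with the legacy quasi-likelihood method and 0 with no low-count filter. In AD-HFD against AD it was 1 with DESeq2 and 1 without AD-HFD-4 and AD-HFD-3, a choice made after seeing the data. The other clock genes numbered 3, 0 and 7, with 1 to 7, 0 to 11 and 6 to 19 when 1 library was left out. With DESeq2 they numbered 5, 4 and 13, and without AD-HFD-4 and AD-HFD-3 they numbered 7, 3 and 11. In AD against Sham they numbered 7 in a fit on the 2 groups compared and 6 with AD-3 as the only AD library, which is then assumed to vary like the other groups. Over all genes 1174, 2 and 6162 were called, with 302 to 2329, 0 to 5841 and 3514 to 8615 when 1 library was left out. Between AD and Sham DESeq2 called 2602, the fit on the 2 groups compared 2363, and the fit without AD-HFD-4 and AD-HFD-3 2801. Between AD-HFD and AD these were 3311, 0 and 1896. With AD-3 as the only AD library, AD-HFD against AD had 0 calls.

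Per1 in AD-HFD against Sham (0.01) changed sign with DESeq2 (-0.018), voom (-0.030), RLE size factors (-0.018), upper-quartile scaling (-0.045), no filter (-0.00067), with AD-3 as the only AD library (-0.00056) and without AD-HFD-4 and AD-HFD-3 (-0.28). It ran from -0.15 to 0.17 with 1 library left out. With AD-3 as the only AD library, 6 members changed sign in AD-HFD against AD: Per3 (0.73), Cry1 (-0.13), Cry2 (0.32), Nr1d1 (0.16), Nr1d2 (0.51) and Dbp (0.34). With 1 library left out, Per3 in AD against Sham ran from -0.28 to 0.047 (without AD-3) and Ciart in AD-HFD against AD from -0.075 (without AD-HFD-4) to 0.32. Of 240 alternative values per comparison over the 10 genes, 197, 224 and 199 kept their direction and side of the threshold. The causes were not tested. No scaling moved the median of all genes by over 0.1. Correlated pairs numbered 0 of 55, and 18 when log2 CPM was not centred on the group means, which then carries the group differences.

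The replicate number as a block left 1 called member (Per2) in AD against Sham and 5 genes over all in AD-HFD against AD, and Per1 in AD-HFD against Sham was -0.0097. Same-numbered libraries correlated at -0.317 to 0.095 in their deviations from the group means. The labels do not say what the number stands for. These deviations also carry the spread in cell type markers, so they cannot decide it. Only 1 of the 12 libraries correlated best with its own number. Every clock gene had at least 222 counts in each library.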

Other observations

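Ranked over 11140 named genes with a mean of at least 5 CPM, the genes whose group-centred log2 CPM lay closest to the mean of the 10 clock genes over the 12 libraries included Prr12 (Pearson r = 0.925), Rhobtb2 (0.916), Creld1 (0.912) and Adamts2 (0.91). The genes farthest on the negative side were Tex30 (-0.931), Rsl1d1 (-0.905), Supv3l1 (-0.901), Sfrp1 (-0.891) and Pxylp1 (-0.891). These values are a description of 12 libraries that share the spread in cell type markers and are the extremes of many genes ranked, so no p is given.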
